A study of Mus musculus with 48 samples.

Results

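Homeobox, Pax and T-box genes encode the transcription factors that lay out the body axis and the regions of the brain in the embryo. The genes described here are the 114 members of 13 such families (Hox, Dlx, the family of Six3, Lhx, Pax, Tbx, Pitx, Irx, Otx, Emx, Msx, Meis and Nkx) among the 48795 genes of the count table. They were picked out by symbol, and genes with no reads were kept. A few families keep working in the adult striatum: Dlx, Six3 and Meis2 act in the lineage of its GABAergic neurons, Lhx6, Lhx8 and Nkx2-1 in its interneurons, and Nkx2-2 and Nkx6-2 in oligodendrocytes. Most of the others, above all the Hox genes, are closed in the forebrain by Polycomb complexes, protein assemblies that mark the histones of silent developmental genes. The question was whether such silent genes gained reads in Q140 striatum and lost them when Msh3 was also mutated.

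RNA of the striatum was sequenced in 48 libraries from mice of both sexes, 6 months of age, with C57BL/6 as the strain. Q140 mice carry, on a single allele of the Huntington's disease gene Htt, a knocked-in long CAG tract, and the protein of Msh3 takes part in mismatch repair, a process that also acts on CAG tracts. There were 6 groups: 7 wild type libraries, 8 of Q140 alone, 9 of Msh3+/- and 8 of Msh3-/- without the knock-in, and 8 each of Q140 with Msh3+/- and of Q140 with Msh3-/-. The labels do not say that each library is a separate mouse, so p-values measure the spread between libraries, which may in part be technical. The labels name no promoter or Cre driver, so no cell type limits these genotypes in the labels. Libraries are named by sex and number within their group, so that Q140 M1 is the first male of the Q140 group.

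Library totals ran from 33.7 to 52.8 M counts (M stands for 1000000) with a median of 45.0 M, and 19975 genes passed the count filter and were tested. Levels are given as CPM (counts per 1000000 of the scaled library size) as mean ± SD, and levels of different genes are compared only as FPKM, which also divides by gene length. "Rose", "fell" and "called" mean an adjusted p under 0.05 in edgeR's quasi-likelihood test. The Benjamini-Hochberg correction was taken across the 19975 genes. For fits without the count filter it was taken across the 35140 genes with any read. Msh3 itself was read more, not less, in the libraries labelled as Msh3 mutants: 31 ± 1.46 CPM in wild type, 77.4 ± 4.73 in Msh3+/- and 120.0 ± 7.03 in Msh3-/-, with 32.1 ± 1.27, 76.9 ± 3.14 and 125 ± 6.59 CPM in the matching Q140 groups. The label classes did not overlap in Msh3 CPM, but every direction along Msh3 genotype below rests on the labels. For Htt the level fell from 209 ± 3.15 CPM (wild type) to 192 ± 16.3 CPM (Q140), a log2 fold change of -0.13 (adjusted p = 0.0249).

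The members fell into 4 classes by their level over all libraries. No read was found in any library for 21 of them, 51 were near-silent (a mean under 0.1 CPM), 18 were low (0.1 to 1 CPM) and 24 were expressed. The count filter kept 37 members for testing and left out 77, of which 56 had at least 1 read. Meis2, a homeodomain factor of the TALE class that is a Hox cofactor and a marker of striatal projection neurons, had the highest level at 53.6 FPKM. Dlx6 followed at 17.7 FPKM, Six3 at 15.3, Nkx6-2 at 5.74 and Lhx6 at 5.31 FPKM, each the highest of its family. The top members of the other families were Emx2 (2.71 FPKM), Tbx6 (0.732), Msx1 (0.587), Pax6 (0.502), Otx1 (0.297) and Irx1 (0.135). The Hox family topped out at 0.0545 FPKM (Hoxd1) and the Pitx family at 0.0087 FPKM (Pitx3, a factor of midbrain dopamine neurons).

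**Figure D1:**
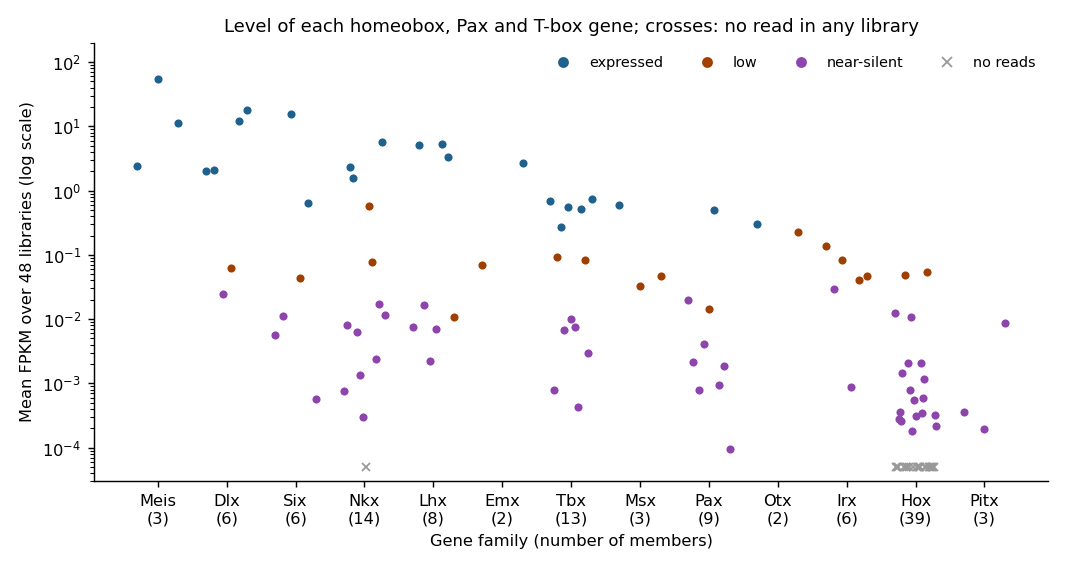
Mean FPKM over the 48 libraries (vertical axis, log scale) of each member, by gene family with its number of members. Meis2, Dlx6 and Six3 are the highest points, from 15.3 to 53.6 FPKM, and the 21 members with no read are crosses drawn at the foot of the axis, where a log scale cannot show 0.

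The Hox clusters held nearly all of the members without a read. Of 39 Hox genes, 20 had no read in the 2150.0 M counts of all libraries together, 17 were near-silent and 2 (Hoxa7 and Hoxd1) were low. A count of 0 over all libraries allows a level of up to 0.0014 CPM (3 counts, counting error only). The only other member without a read was Nkx2-6, of the NK2 family. In the HoxA cluster on chromosome 6, Hoxa6, Hoxa9, Hoxa10, Hoxa11 and Hoxa13 had no reads. In HoxB on chromosome 11 this held for 4 of 10 genes, in HoxC on chromosome 15 for 5 of 9 and in HoxD on chromosome 2 for 6 of 9. Hoxd3 and Hoxd4 share over 50% of their exon bases with a neighbour on the same strand, and the part of reads shared between genes in their 0 was not tested. Hoxa7 held 301 of the 371 HoxA reads, and Hoxd1 held 216 of the 219 HoxD reads.

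Hoxa7, an axial patterning gene of the trunk, was the only Hox gene with enough reads for the count test, and it rose in Q140. It passed the count filter mainly through its Q140 libraries, where it was high. Its place among the tested members is thus not independent of its rise or of its falls against Q140. Without the count filter the rise was also called. Hoxa7 lies at chr6:52214491-52221854 on the minus strand (GRCm38), between Hoxa6 and Hoxa9, which had no reads. Hoxa10, a HoxA gene without reads, lies beyond Hoxa9. The RefSeq promoters of Hoxa7 and Hoxa10 are given as the 250 bases before the gene's start (RefSeq, GRCm38.p6, strand in brackets). Each CpG is in capitals, since CpG-rich starts are the usual sites of Polycomb binding.
Hoxa7 chr6:52218574-52218823 (-): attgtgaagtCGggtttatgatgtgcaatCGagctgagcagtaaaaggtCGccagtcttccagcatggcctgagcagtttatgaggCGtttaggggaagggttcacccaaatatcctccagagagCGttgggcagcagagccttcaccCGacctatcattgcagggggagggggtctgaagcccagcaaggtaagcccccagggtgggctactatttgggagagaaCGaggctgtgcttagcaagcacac
Hoxa10 chr6:52240855-52241104 (-): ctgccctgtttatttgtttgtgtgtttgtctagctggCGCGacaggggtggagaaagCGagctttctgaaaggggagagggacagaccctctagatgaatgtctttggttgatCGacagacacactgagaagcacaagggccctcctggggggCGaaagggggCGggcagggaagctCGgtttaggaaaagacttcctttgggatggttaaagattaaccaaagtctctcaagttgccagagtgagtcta
Each of these windows held 7 CpGs, at an observed over expected ratio of 0.386 for Hoxa7 and 0.458 for Hoxa10. HoxA genes without reads differed widely in this ratio. In windows of 300 bases (250 before to 50 after the start) it was 0.405 for Hoxa7 and 0.596 for Hoxa10. Among the other HoxA genes without reads it was 0.923 for Hoxa6, 0.28 for Hoxa9, 0.787 for Hoxa11 and 0.918 for Hoxa13. The RefSeq start of Hoxa7 lies inside the longer gene model used for the coordinates.

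Hoxa7 ran from 0.0207 to 0.211 CPM in the 7 wild type libraries, with a median of 0.0952 (1 to 10 reads a library). In the 8 Q140 libraries it ran from 0.22 to 0.472 CPM, with a median of 0.277 (10 to 21 reads). Every Q140 library was above every wild type library. The means were 0.11 ± 0.0789 CPM (n = 7) and 0.302 ± 0.0776 CPM (n = 8), a log2 fold change of 1.48 (SE 0.34, adjusted p = 0.00113), from 111 reads against 35. With Msh3 mutated the level in Q140 was lower: 0.043 to 0.182 CPM, median 0.0795, in Q140 Msh3-/- and 0.041 to 0.174 CPM, median 0.138, in Q140 Msh3+/-. Neither of these groups overlapped Q140. Hoxa7 fell in Q140 Msh3-/- against Q140 (mean 0.0984 ± 0.0545 CPM, log2 fold change -1.56, SE 0.335, adjusted p = 0.00105) and in Q140 Msh3+/- against Q140 (0.129 ± 0.0452 CPM, -1.18, SE 0.314, adjusted p = 0.0358). These comparisons share the 8 Q140 libraries with the comparison to wild type, so their opposite signs are not independent. Without Q140 the level was 0.121 ± 0.0784 CPM in Msh3+/- and 0.0668 ± 0.0429 in Msh3-/-. Neither Q140 Msh3-/- against Msh3-/- (log2 fold change 0.57, SE 0.425, adjusted p = 0.845) nor Q140 Msh3+/- against Msh3+/- (0.07, SE 0.348, adjusted p = 0.951) was called for Hoxa7. The interaction of Q140 with Msh3-/- was -0.90 (SE 0.565, unadjusted p = 0.117, adjusted p = 0.473) and that with Msh3+/- was -1.41 (SE 0.491, unadjusted p = 0.00621, adjusted p = 0.469), and neither was called. That the effect of Q140 differed with Msh3 genotype was therefore not shown.

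The rise of Hoxa7 in Q140 was called in all 11 other settings that could test it and without each of the 48 libraries in turn (log2 fold change 1.301 to 1.689). The fall in Q140 Msh3+/- was lost in 5 of 10 other settings (no count filter, only the groups compared, plate column or replicate number as a block, and without Q140 Msh3+/- F1 with Msh3+/- F5). It was also lost without Q140 F1, F2 or M1 or without Q140 Msh3+/- F1, M1, M2 or M4 (log2 fold change -1.23 to -1.03, adjusted p 0.0593 to 0.105). Hoxaas3, an antisense transcript that covers 20.4% of the Hoxa7 exon bases, had 1 read each in wild type, Q140 and Q140 Msh3+/- and none in the other groups. Q140 M1, the library with the most Hoxa7, also had the most reads of other near-silent genes (363 summed CPM against 246 to 285 in the other Q140 libraries) and the lowest summed level of medium spiny neuron markers in its group. Its part in the result was not tested, but the rise without it was 1.37 on the log2 scale (adjusted p = 0.00421).

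The 56 members with reads that missed the count filter were fitted without it, and 2 of them, Tbx5 and Nkx2-3, were called, both in Q140 Msh3+/- against Q140. Tbx5, a T-box factor of heart and forelimb, had reads in 2 of 7 wild type libraries (3 reads) and in 6 of 8 Q140 libraries (19 reads). By library the Q140 reads were 0, 3, 0 and 3 in females and 5, 2, 4 and 2 in males. Wild type and Q140 overlapped. The ratio of summed levels was 5.81 with a counting interval of 1.71 to 30.7 (95%, exact), and the test between libraries was not passed (log2 fold change 2.22, SE 0.764, adjusted p = 0.0534). In Q140 Msh3+/- there was 1 read, and Tbx5 fell against Q140 (log2 fold change -3.34, SE 0.814, adjusted p = 0.0339; ratio of Q140 to Q140 Msh3+/- 20.3, counting interval 3.23 to 845). Q140 Msh3-/- held 4 reads, with no call (-1.95, SE 0.717, adjusted p = 0.109). The count was 1 read each in Msh3+/- and Msh3-/-.

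Nkx2-3, an NK2 factor of gut and spleen vessels, had 2 reads in wild type and 17 in Q140, of which 10 came from Q140 M1 and 4 from Q140 F1. Only 4 of the 8 Q140 libraries had any. Q140 against wild type was not called (log2 fold change 2.48, SE 0.963, adjusted p = 0.102). All 8 Q140 Msh3+/- libraries were at 0 reads, and the fall was called (adjusted p = 0.0452). The summed Q140 level was 6.07-fold a floor of 3 counts over that group. This figure takes the 17 Q140 reads as exact and is no lower limit of the difference between the groups. Q140 Msh3-/- had 5 reads, 4 of them in M3. The promoter of Nkx2-3 is shown for contrast with Hoxa7, since it held 14 CpGs in 250 bases, at an observed over expected ratio of 0.626.
Nkx2-3 chr19:43612075-43612324 (+): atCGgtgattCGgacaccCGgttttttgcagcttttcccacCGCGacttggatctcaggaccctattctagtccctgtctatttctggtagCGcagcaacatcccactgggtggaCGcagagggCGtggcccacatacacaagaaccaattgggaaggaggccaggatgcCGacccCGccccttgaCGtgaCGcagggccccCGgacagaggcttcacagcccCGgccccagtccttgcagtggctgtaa
Both calls against Q140 Msh3+/- rest on few libraries. That of Tbx5 was lost without Q140 F1, F2, F4, M1 or M3 or without Q140 Msh3+/- F1, M2, M3 or M4 (adjusted p 0.0506 to 0.0994), and that of Nkx2-3 without Q140 F1, F2 or M1 or any Q140 Msh3+/- library but F4 (adjusted p 0.0579 to 0.233). Each was also lost in 5 of 8 other settings (only the groups compared, plate column, plate row or replicate number as a covariate, and without Q140 Msh3+/- F1 with Msh3+/- F5), and DESeq2 gave neither an adjusted p in that comparison.

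**Figure D2:**
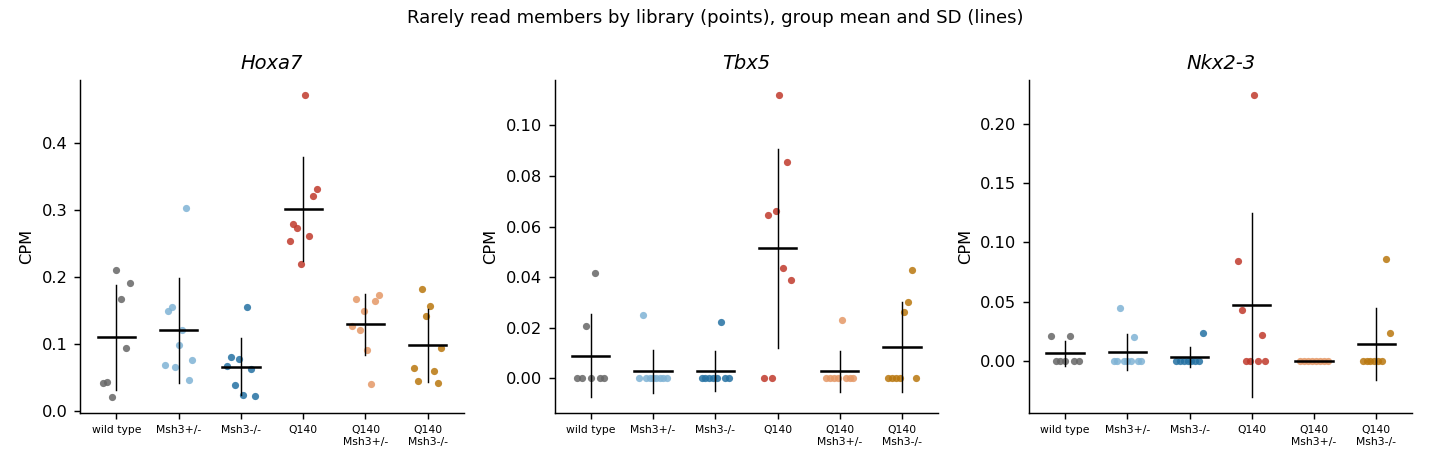
CPM (vertical axes) of Hoxa7, Tbx5 and Nkx2-3 in each library (points) of the 6 groups, with group mean and SD (lines). All 8 Q140 points of Hoxa7 lie at 0.22 CPM or above, over the highest wild type point of 0.211, while Tbx5 and Nkx2-3 have Q140 points at 0.

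Among the 56 members with reads below the count filter, no call was made in Q140 against wild type, where 9.38% of the 35140 genes with any read were called. An unadjusted p under 0.05 was reached by 8, 7 higher (Hoxb3, Hoxc6, Hoxc13, Nkx2-3, Pax8, Six6 and Tbx5) and 1 lower (Tbx20). Counts of unadjusted p in this paragraph have no matching share of all genes beside them. DESeq2 gave an adjusted p to 3 of the 56 and called 0. Hoxc6, a thoracic Hox gene, shows how few reads these are: 5 in Q140, 1 in Msh3+/- and 0 in each other group. Tbx20, a T-box factor of heart and motor neurons, went the other way, with 32 wild type reads against 11 from Q140, and 32 reads in Q140 Msh3+/- and 33 reads in Q140 Msh3-/-. Its wild type libraries ran from 0.024 to 0.19 CPM and its Q140 libraries from 0 to 0.0642 CPM, with overlap (log2 fold change -1.66, SE 0.64, adjusted p = 0.0969). In Q140 Msh3-/- against Q140 none of the 56 was called either (background 5.16%), with 7 at an unadjusted p under 0.05, 1 higher and 6 lower, and DESeq2 gave an adjusted p to 0 of the 56. In Q140 Msh3+/- against Q140 the 2 calls above stood beside a background of 0.6% (0.199% lower).

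Summed over the 51 near-silent members, reads had a higher mean in Q140, with groups that overlapped. The sum ran from 0.441 to 1.26 CPM in wild type (median 0.829) and from 0.547 to 1.42 CPM in Q140 (median 1.07). The lowest Q140 libraries lay inside the wild type range. The means were 0.769 ± 0.273 CPM (n = 7) and 1.05 ± 0.321 CPM (n = 8), a ratio of 1.37, where the other 14162 near-silent genes of the table had a ratio of 1.06. Without Q140 M1 these ratios were 1.3 and 1.01. Near-silent members with at least 1 read numbered 14.7 ± 2.29 a library in wild type and 18.2 ± 3.2 in Q140, and 12.5 ± 2.32 and 16.2 ± 2.8 when each library was scaled to the lowest depth. The means were 0.659 ± 0.224 CPM in Msh3+/-, 0.769 ± 0.196 in Msh3-/-, 0.80 ± 0.216 in Q140 Msh3+/- and 0.787 ± 0.186 in Q140 Msh3-/-. In these groups the libraries lay within the wild type range, except in Msh3+/-, which ran from 0.347 to 1.13 CPM.

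Member by member, 30 of the 51 had a higher mean in Q140 than in wild type, 16 a lower one and 5 an equal one. The share with a higher mean was 58.8%, and 43.5% among the other near-silent genes. For Q140 Msh3-/- against Q140, 13 were higher and 30 lower (58.8% lower, against 44.2% of the other near-silent genes), and in Q140 Msh3+/- against Q140, 11 were higher and 32 lower (62.7% against 42.3%). These comparisons again share the Q140 libraries. In comparisons without them, Q140 Msh3-/- against Msh3-/- had 20 higher (39.2%) and 19 lower (37.3%), beside 41.2% and 39.9% of the other near-silent genes. Q140 Msh3+/- against Msh3+/- had 25 higher (49%) and 13 lower (25.5%), beside 44.4% and 40.2%. Without the knock-in, Msh3-/- against wild type had 15 higher and 25 lower (49% lower, beside 42.2%), and Msh3+/- against wild type had 15 higher and 23 lower (45.1% lower, beside 40.3%). Counts of this kind describe these libraries and were not tested.

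**Figure D3:**
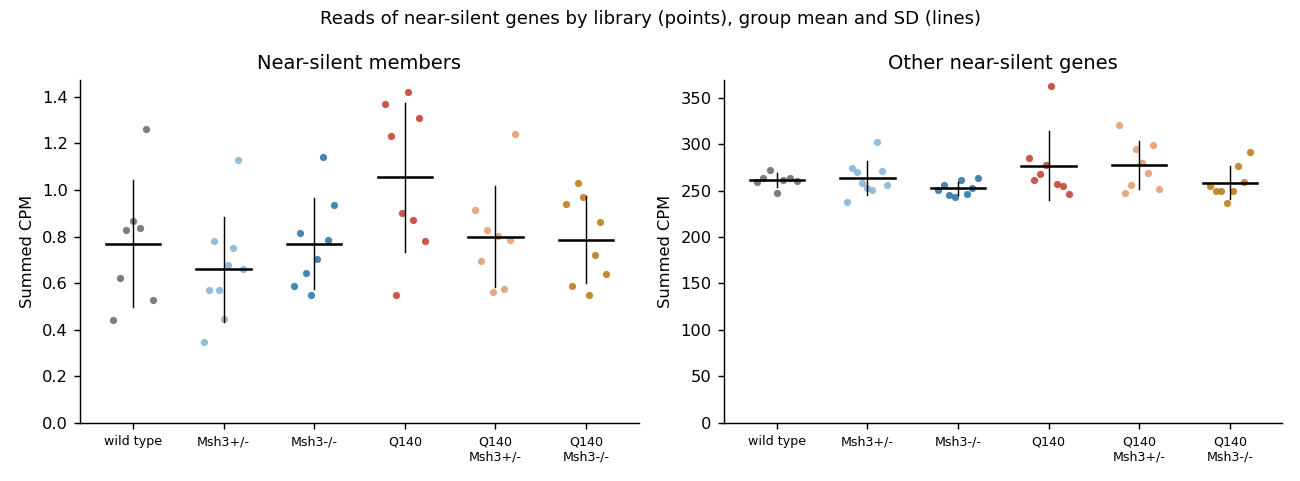
Summed CPM (vertical axes) in each library (points) of the 51 near-silent members, left, and of the 14162 other near-silent genes, right, with group mean and SD (lines). The Q140 members' points reach 1.42 CPM but start at 0.547, inside the wild type range, and on the right 1 Q140 library stands at 363 CPM.

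The 8 near-silent members with the most reads held most of what was counted. Irx2 had 205 reads over all libraries, Pax1 191, Tbx20 152, Dlx3 135, Nkx6-1 118, Lhx3 107, Lhx1 66 and Hoxb4 60. Irx2, an Iroquois factor, had 24 reads in wild type, 45 reads in Q140, 39 reads in Q140 Msh3+/- and 31 reads in Q140 Msh3-/-. Pax1, a factor of the embryonic spine and thymus, had 28, 40, 42 and 30 reads in the same order. Lhx1, a LIM homeobox factor of early neurons, had 5, 23, 12 and 7 reads, and 12 of the 23 lay in a single Q140 library. Nkx6-1, a factor of motor neurons and islet cells, had 22, 25, 16 and 16 reads. By family, the sum of the 17 near-silent Hox genes was 0.0567 ± 0.0383 CPM in wild type and 0.113 ± 0.0595 in Q140, that of the 7 Pax genes 0.125 ± 0.0885 and 0.181 ± 0.105, and that of the 6 Tbx genes 0.156 ± 0.0928 and 0.145 ± 0.054. Each of these differences was smaller than the SD of the Q140 libraries, but that of the Hox genes (18 against 42 reads) was larger than the wild type SD. None of these family sums was tested.

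Among the members with enough reads to test, the share called in Q140 against wild type was near that of all genes tested. Hoxa7 apart, the changes called there were small. In Q140 against wild type, 6 of the 37 tested members were called, 4 higher (Hoxa7, Six3, Dlx5 and Meis3) and 2 lower (Meis2 and Dlx6). That is 16.2%, and 19.9% of all 19975 genes tested were called, 9.64% higher and 10.2% lower. The members' median log2 fold change was 0.06, and that of all genes tested 0.01. An unadjusted p under 0.05 was reached by 10 of the 37, and by 6365 of the 19975 genes. Of the 37, 3 did not overlap between the groups: Hoxa7 and Six3, higher, and Meis2, lower. That is 8.11%, beside 3.52% of all genes tested (1.68% higher and 1.85% lower). Hoxa7 came into the tested members mainly through its Q140 libraries, so its part in these counts is not independent of its rise.

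Meis2 ran from 639 to 717 CPM in wild type (median 676) and from 494 to 630.0 CPM in Q140 (median 579). Every Q140 library was below every wild type library. It fell from 672 ± 29.1 to 568 ± 47.6 CPM, a log2 fold change of -0.24 (SE 0.0442, adjusted p = 5.68e-05). Levels in Q140 Msh3-/- were 591 to 718 CPM (median 660.0), overlapping both, and rose against Q140 (0.19, SE 0.0427, adjusted p = 0.00154). Q140 Msh3+/- lay between at 613 ± 37.4 CPM, not called against Q140 (0.11, adjusted p = 0.168) and lower than Msh3+/- (689 ± 29.5 CPM, log2 fold change -0.17, adjusted p = 0.00713), a call that was lost with plate row as a covariate (adjusted p = 0.0575). Dlx6, a distal-less factor of GABAergic neurons, fell from 42.5 ± 3.10 to 38.2 ± 2.32 CPM (-0.16, SE 0.0495, adjusted p = 0.0194), with ranges of 38.9 to 46.4 and 35.4 to 41.8 CPM that overlapped. It rose in Q140 Msh3-/- to 42.8 ± 2.69 CPM (0.17, SE 0.048, adjusted p = 0.0158). The fall of Dlx6 was lost without wild type F1 or M1 (adjusted p 0.0535 to 0.0569). Both calls of Dlx6 were lost with library totals as scaling and on the log2(FPKM + 0.1) and log2(FPKM + 1) scales.

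Six3, a sine oculis factor needed for Drd2-expressing striatal neurons, rose. It ran from 71.8 to 84.5 CPM in wild type (median 75.5) and from 87.6 to 96.5 CPM in Q140 (median 89.9), without overlap. The means were 77.3 ± 5.1 and 90.5 ± 2.76 CPM (log2 fold change 0.22, SE 0.0435, adjusted p = 0.000145). Q140 Msh3-/- stood at 84.6 ± 4.47 CPM and Q140 Msh3+/- at 85.5 ± 6.24, neither called against Q140 (-0.10 and -0.08, adjusted p = 0.132 and 0.321). Dlx5, the neighbour of Dlx6, rose from 25.7 ± 2.6 to 29.2 ± 1.88 CPM (0.19, SE 0.0487, adjusted p = 0.00419), while Dlx6 fell. These genes lie on opposite strands of chromosome 6, Dlx6 at 6863334 to 6868568 and Dlx5 at 6877805 to 6882085. Dlx5 in Q140 Msh3-/- stood at 28.9 ± 1.07 CPM, not called against Q140 (-0.01, adjusted p = 0.903). Meis3, a Meis2 relative, rose from 34.9 ± 2.2 to 37.6 ± 1.99 CPM (0.11, adjusted p = 0.0386), but this was lost in 6 of 14 other settings and without Q140 F1, F4, M2 or M3 or wild type F2, F3, M1, M2 or M4 (adjusted p 0.0502 to 0.119).

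The promoters of Six3 and Meis2, the striatal members that rose and fell without overlap, are shown in the same way (RefSeq, GRCm38.p6).
Six3 chr17:85620584-85620833 (+): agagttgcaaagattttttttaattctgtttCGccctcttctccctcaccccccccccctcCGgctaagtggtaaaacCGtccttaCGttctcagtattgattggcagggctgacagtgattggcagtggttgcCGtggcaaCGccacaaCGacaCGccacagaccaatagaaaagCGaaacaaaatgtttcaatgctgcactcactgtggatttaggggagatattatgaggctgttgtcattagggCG
Meis2 chr2:116064620-116064869 (-): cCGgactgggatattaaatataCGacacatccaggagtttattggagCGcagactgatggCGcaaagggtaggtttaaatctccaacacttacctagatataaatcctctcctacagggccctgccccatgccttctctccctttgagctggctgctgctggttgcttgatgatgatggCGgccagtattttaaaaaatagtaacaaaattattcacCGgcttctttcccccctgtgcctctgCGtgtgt
They held 10 and 7 CpGs, at observed over expected ratios of 0.673 and 0.497.

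**Figure D4:**
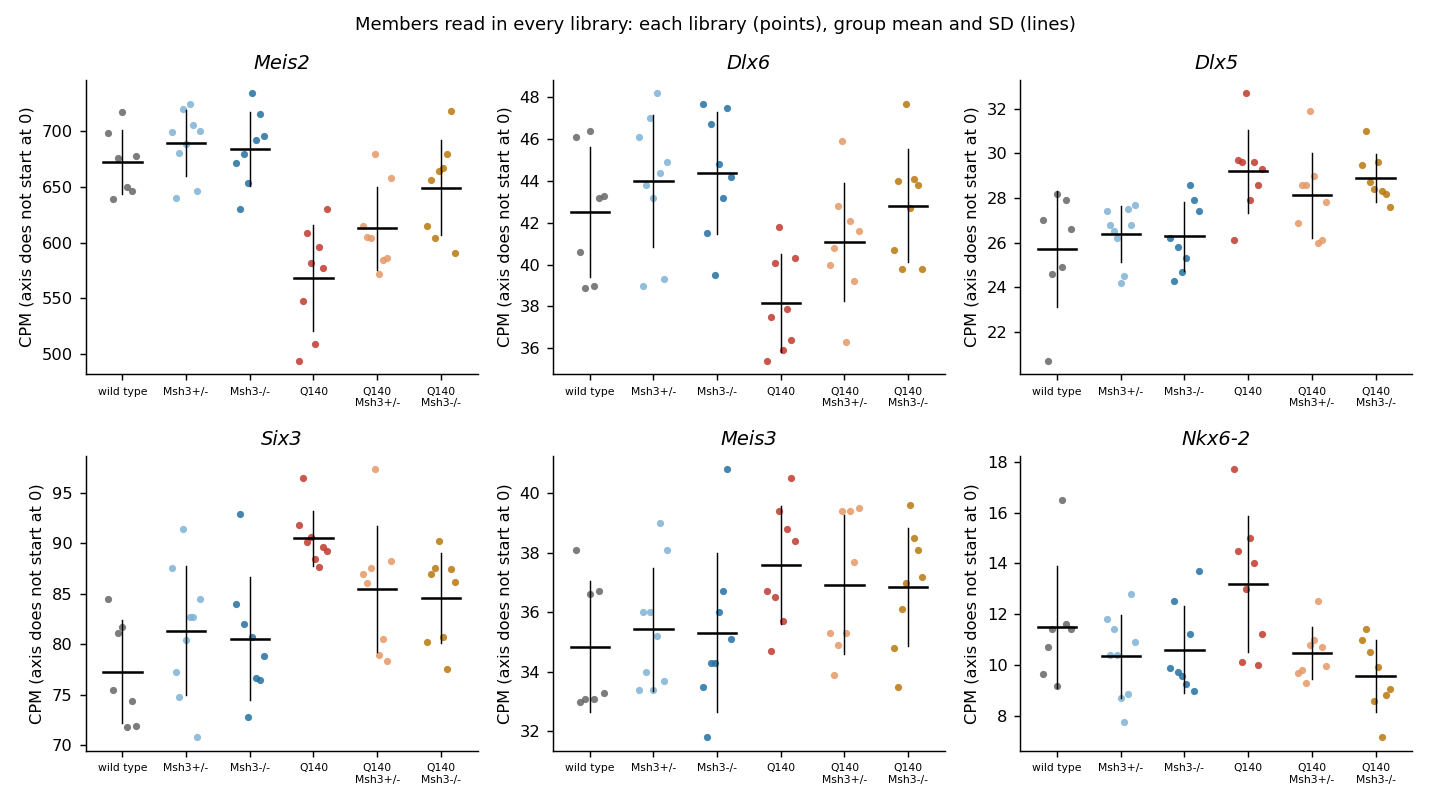
CPM (vertical axes, which do not start at 0) of Meis2, Dlx6, Dlx5, Six3, Meis3 and Nkx6-2 in each library (points) of the 6 groups, with group mean and SD (lines). Q140 lies below wild type for Meis2 (494 to 630.0 against 639 to 717 CPM) and above it for Six3 (87.6 to 96.5 against 71.8 to 84.5 CPM), and the other panels overlap.

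Markers of striatal cells also moved in these comparisons, and which cells carried the reads of the members was not measured. Of 12 markers of medium spiny neurons, the projection neurons of the striatum, 10 fell in Q140 against wild type, led by Penk and Drd1, and Tac1 rose. Of all genes tested, 10.2% fell and 9.64% rose. The summed level of the 12 markers was 13130.0 to 14990.0 CPM in wild type and 7276 to 11100.0 CPM in Q140. It was 11060.0 to 12990.0 CPM in Q140 Msh3-/-, where 10 of the markers rose against Q140, beside 6.85% of all genes tested. In bulk tissue fewer cells of a type and less RNA per cell cannot be told apart. The part of these markers in the fall of Meis2 and Dlx6 was not tested. Six3, Dlx5 and Meis3 rose in the same comparison, and the part of the markers in that was not tested either.

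Markers of the other cell types a striatal piece can hold were read in Q140 against wild type, where 9.64% of all genes tested rose and 10.2% fell. In Q140 against wild type, 1 of 10 cortical neuron markers rose (Cux2), none of 10 markers of septal, pallidal and thalamic neurons was called, and of 10 interneuron markers Isl1 rose while Nos1 and Th fell. Of 12 choroid plexus and ependyma markers Kcnj13 fell (log2 fold change -3.70), and of 10 meninges and fibroblast markers Dcn fell. Against wild type Kcnj13 was also lower, without a call, in Msh3+/- (-2.71), Msh3-/- (-4.00) and Q140 Msh3-/- (-3.20). Its low level beside wild type was thus not particular to Q140. Of 10 endothelial and mural markers 4 fell (Tek, Rgs5, Kdr and Pecam1), and of 8 astrocyte markers 4 fell (Slc1a2, S1pr1, Aqp4 and Slc1a3). Of 8 oligodendrocyte markers Ugt8a fell, and of 8 microglia markers Csf1r and C1qa fell. The defining markers of striatum were high in every group, with Penk at 1950.0 ± 183 CPM and Drd1 at 321 ± 23.5 CPM in wild type.

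Nkx6-2, a factor of oligodendrocytes, fell in Q140 Msh3-/- against Q140. It was at 10 to 17.7 CPM (median 13.5) in Q140, at 7.15 to 11.4 CPM (median 9.49) in Q140 Msh3-/- and at 9.15 to 16.5 CPM (median 11.4) in wild type, so the groups overlapped. It fell from 13.2 ± 2.67 CPM in Q140 to 9.56 ± 1.42 in Q140 Msh3-/- (log2 fold change -0.46, SE 0.116, adjusted p = 0.00519), and Q140 against wild type was not called (0.20, adjusted p = 0.252). The interaction of Q140 with Msh3-/- was -0.35 (unadjusted p = 0.0439, adjusted p = 0.308), which was not called. On the other strand, 12.9% of its exon bases overlap Inpp5a. Its relatives Nkx2-2 and Nkx2-9 had values in the same direction, 5.31 ± 1.51 to 4.01 ± 0.703 CPM (-0.40, adjusted p = 0.0663) and 0.877 ± 0.295 to 0.632 ± 0.129 CPM (-0.48, adjusted p = 0.137). Of 8 oligodendrocyte markers none was called in Q140 Msh3-/- against Q140, where 11.9% of all genes tested were called. The sum of these markers was 4985 to 7275 CPM in Q140 and 5069 to 6335 in Q140 Msh3-/-. Their part was not tested.

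In Q140 Msh3-/- against Q140, 4 of the 37 tested members were called: Meis2 and Dlx6 higher, Hoxa7 and Nkx6-2 lower. That is 10.8%, beside 11.9% of all genes tested (6.85% higher and 5.04% lower). In Q140 Msh3+/- against Q140, Hoxa7 alone was called, 2.7% of the members beside 1.98% of all genes (0.696% lower). No member was called in Q140 Msh3-/- against wild type (background 0.2%; 4 members at an unadjusted p under 0.05), in Q140 Msh3-/- against Msh3-/- (0.0751%; 5), in Msh3-/- against wild type (0.03%; 3) or in Msh3+/- against wild type (0.01%; 3), and DESeq2 also called 0 in each (of 27, 33, 37 and 37 members to which it gave an adjusted p). Over all 19975 genes tested, an unadjusted p under 0.05 was reached by 1656, 1342, 807 and 943 in the same order. The interaction of Q140 with Msh3-/- called 478 genes (2.39%) and no member. An unadjusted p under 0.05 was reached there by 3053 genes. Among them were 9 members, including Meis2 (0.17, adjusted p = 0.148), Six3 (-0.15, adjusted p = 0.195) and Lhx8. The interaction with Msh3+/- called no gene at all, with 1621 genes, 4 of them members, at an unadjusted p under 0.05. DESeq2 called 0 members in both interactions, of 21 with an adjusted p in that with Msh3-/- and 33 in that with Msh3+/-.

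**Figure D5:**
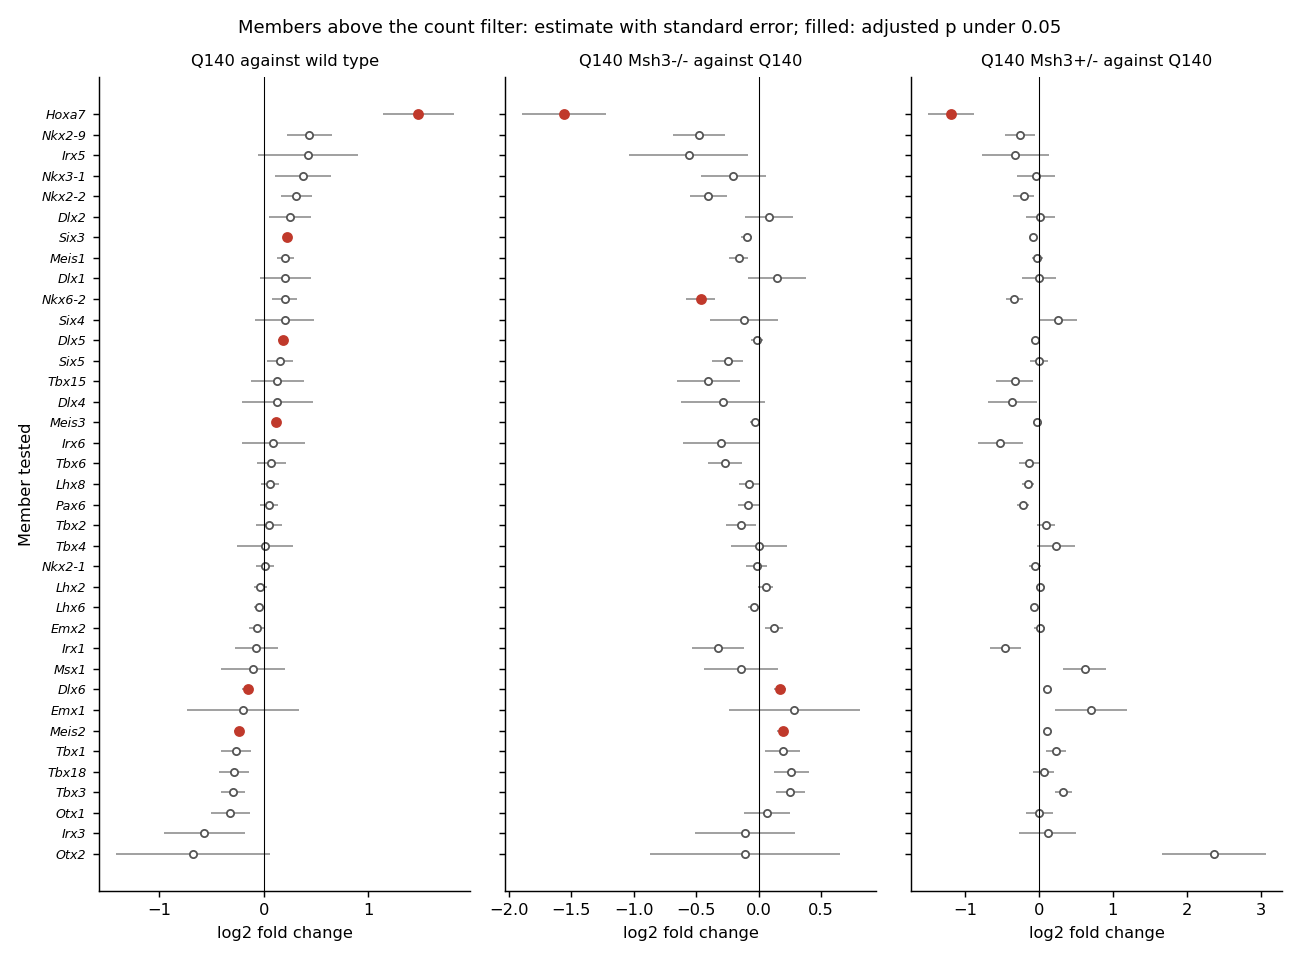
Log2 fold change (horizontal axes) of the 37 tested members with its standard error, in Q140 against wild type, Q140 Msh3-/- against Q140 and Q140 Msh3+/- against Q140, ordered by the first; filled points passed an adjusted p of 0.05. Hoxa7 stands at 1.48, -1.56 and -1.18, most other members lie within 0.5 of 0, and all comparisons share the Q140 libraries.

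Q140 Msh3+/- against Msh3+/- called Meis2, lower, and Otx2, higher: 2 of 37 (5.41%), beside 6.45% of all genes (2.96% higher and 3.49% lower). Otx2, a homeobox factor of the midbrain and the choroid plexus, falls outside the rule for named genes and was chosen after its values were seen. Its 8 Q140 Msh3+/- libraries held 742 reads in F1 and 10 to 39 in each of the others, so that the call rests on F1. Without F1 the log2 fold change was -0.027 (adjusted p = 0.981) in place of 2.50 (adjusted p = 0.0169). Q140 Msh3+/- F1 also had 4520.0 summed CPM of 12 choroid plexus and ependyma markers, where the median of its group was 58.5. Msx1, a homeobox factor of the dorsal midline, stood at 9.73 CPM in the same library and at 1.29 to 1.80 CPM in the others of the group. In wild type the library with the most Otx2 was M2 (2.09 CPM, the others 0.144 to 0.803), which also had 662.7 summed CPM of these markers.

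The top members of the remaining families were not called in Q140 against wild type. Lhx6 had a level of 26.3 ± 1.23 CPM in wild type libraries and 25.4 ± 2.23 in those of Q140 (-0.05, adjusted p = 0.559), Lhx8, a factor of cholinergic neurons, at 8.43 ± 1.4 and 8.76 ± 1.23 CPM (0.06, adjusted p = 0.673), and Nkx2-1, the ventral forebrain factor upstream of both, at 6.45 ± 0.564 and 6.5 ± 0.726 CPM (0.01, adjusted p = 0.945). Emx2, a factor of cortex and dorsal forebrain, was at 8.38 ± 0.828 and 7.98 ± 0.755 CPM (-0.07, adjusted p = 0.547), and Pax6 at 6.17 ± 1.07 and 6.36 ± 0.765 CPM (0.05, adjusted p = 0.725). Tbx6, Msx1, Otx1 and Irx1 had log2 fold changes of 0.07, -0.10, -0.32 and -0.07, with adjusted p from 0.235 to 0.853. Hoxd1, below the filter, was at 0.12 ± 0.0489 CPM in wild type, 0.137 ± 0.0669 in Q140 and 0.0823 ± 0.0528 in Q140 Msh3-/-, within the spread of the libraries. Meis1, the third Meis gene, had 23.6 ± 3.26 and 27.4 ± 2.4 CPM (0.21, adjusted p = 0.0592). Dlx1 and Dlx2, which act in progenitors and young interneurons, varied widely between libraries, from 4.23 to 16.8 CPM and from 2.76 to 7.9 CPM within wild type, where males M1, M3 and M4 were the low libraries for both.

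Antisense transcripts of the members were not called in Q140 against wild type, with 7 of 25 in the table tested and smallest p for Emx2os (3.01 ± 0.458 to 3.78 ± 0.775 CPM, 0.34, adjusted p = 0.0554) and Six3os1 (26.4 ± 2.36 to 28.1 ± 2.13 CPM, 0.09, adjusted p = 0.278). Six3os1 overlaps Six3 on the other strand, which with a further gene shares 5.03% of the Six3 exon bases. Dlx6os1, antisense to the Dlx5 and Dlx6 locus, is carried by 2 identifiers. The more abundant had 51.9 ± 3.99 CPM in wild type libraries and 46.2 ± 6.93 in those of Q140 (-0.17, adjusted p = 0.326). The library kit keeps strand, but how HTSeq treated strand is not given in the sources used here, so sense and antisense reads of these pairs may be mixed.

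The wider circle of these genes was read from lists of related factors. Of 108 other developmental transcription factors 46 were tested, and 3 rose and 5 fell in Q140 against wild type, with a median log2 fold change of -0.05. Of all genes tested, 9.64% rose and 10.2% fell. Wt1, a zinc finger factor of kidney and gonad, rose most of the listed factors (log2 fold change 3.59, SE 0.513, adjusted p = 8.46e-07). It went from 0.0875 ± 0.0591 CPM with 0 to 0.167 in wild type to 1.09 ± 0.79 CPM with 0 to 2.14 in Q140. It stood in Q140 Msh3-/- at 0.0693 ± 0.0641 CPM and fell against Q140 (-3.90, adjusted p = 7.17e-07), in a comparison that shares the Q140 libraries. Of the groups given here, Wt1 was high only in Q140. Its place among the tested genes may thus not be independent of its rise or of its fall against Q140. Isl1, a LIM homeodomain factor of cholinergic and Drd1-lineage neurons, rose from 15.9 ± 1.27 to 20.2 ± 0.859 CPM (0.34, adjusted p = 1.43e-06). Foxp1, a forkhead factor of the forebrain, fell (-0.24, adjusted p = 0.000484). Of the 8 Pbx, Pknox and Tgif genes, cofactors or relatives of Hox and Meis proteins, Pknox1 fell (17.9 ± 1.52 to 15.9 ± 1 CPM, -0.16, adjusted p = 0.00617) and no other was called.

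Subunits of the Polycomb complexes were read as well, since they hold the Hox clusters silent. Of 37 tested, 9 rose and 4 fell in Q140, with a median log2 fold change of 0.04. Of all genes tested, 9.64% rose and 10.2% fell. Sfmbt2, an MBT-domain Polycomb protein, rose from 3.22 ± 0.447 to 7.78 ± 2.51 CPM (1.27, SE 0.149, adjusted p = 1.23e-08). Its ranges were 2.63 to 3.9 CPM in wild type and 4.03 to 11.2 CPM in Q140. Cbx8, a chromodomain subunit of the first complex, rose from 8 ± 0.795 to 13 ± 2.45 CPM (0.69, SE 0.0858, adjusted p = 3.65e-08), with a wild type maximum of 9.18 and a Q140 minimum of 9.1. Rnf2, of the same complex, also rose (0.15, adjusted p = 0.00233). Both Sfmbt2 and Cbx8 fell in Q140 Msh3-/- against Q140, to 3.28 ± 0.46 and 7.47 ± 0.753 CPM (-1.25 and -0.79, adjusted p = 5.32e-08 and 6.27e-09), in a comparison that shares the Q140 libraries. In that comparison 5 of the 37 fell and none rose, beside 5.04% and 6.85% of all genes tested. The part of the Polycomb genes in the reads of the Hox clusters was not tested.

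Promoters of the members were compared with those of all genes in the table. A RefSeq promoter window of 300 bases (250 before to 50 after the start) was matched for 76 of the 114 members and for 18931 genes in all. The median observed over expected CpG ratio was 0.662 in the members and 0.54 in all promoters, and a ratio over 0.6 was found in 57.9% and 46%. Among the members it was 0.675 for those with no reads, 0.639 for the near-silent, 0.694 for the low and 0.698 for the expressed. The homeodomain core TAATTA, which reads the same on both strands, was in 7.89% of the members' windows and 4.69% of all. The T-box letters AGGTGTGA, on either strand, were in 1.32% and 1.2%, and the TATA box letters TATAAA in 11.8% and 12.8%. TAATTA and TATAAA can share bases where they overlap, and a match is a description of the sequence.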

How the data were processed

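RNA-seq was made from the striatum of 48 libraries with a stranded TruSeq kit, per the labels' protocols. The submitters' processing notes name HTSeq 0.12.3, STAR 2.7.5c, SAMtools 1.10 and the build GRCm38/mm10, and the strand setting and annotation are not given in the sources used here. The authors deposited raw counts per gene and, in a second table, FPKM values per gene. Groups came from the labels.

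Counts were fitted with edgeR 4.0.16 (R 4.3.3; quasi-likelihood, robust, TMM scaling, filterByExpr with a minimum count of 10 and a minimum total of 15), with group means and sex over all 48 libraries, and the Benjamini-Hochberg correction took in every gene of a fit. Members below the filter were read from the same fit without it. The deposited FPKM were used for levels between genes and, as log2(FPKM + 0.1) and log2(FPKM + 1) in limma 3.58.1, as alternatives, as were DESeq2 1.42.0, other scalings, filters, covariates and left-out libraries. The common biological coefficient of variation was 10.3%, and scripts were tested on simulated data. Ratios of summed reads carry 95% exact binomial intervals for counting error only, since the reads hold no molecular identifiers. Coordinates come from GENCODE M21 (GRCm38), and promoters from RefSeq (GRCm38.p6), printed as 250 bases.

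The members and the 14 lists of related genes and markers were chosen with earlier results of these data known. Genes named were Msh3 and Htt, members called in Q140 against wild type, in either Q140 Msh3 group against Q140 or in an interaction, the highest FPKM of each family, the 8 near-silent members with most reads, up to 4 called genes of each list, and their antisense partners. Other names were chosen after their values were seen. Some genes these rules would name are not reported here.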

Additional observations from a re-analysis of the deposited data

Results flagged for a closer look

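Of 66 groups examined over 10 members and the near-silent sums, 14 held 1 library that stood apart from the rest of its group, by a gap that is large against the group's range. Chance alone flags about 1 in 20 groups. In groups with mostly 0 reads, a single read is enough.

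Otx2 stood at 15.8 CPM in Q140 Msh3+/- F1 (next highest 0.896) and at 2.09 CPM in wild type M2 (next 0.803). Hoxa7 stood apart upwards in 3 groups: 0.472 CPM in Q140 M1 (next 0.331), 0.304 CPM in Msh3+/- M2 (next 0.156) and 0.156 CPM in Msh3-/- M2 (next 0.0815). Six3 was at 96.5 CPM in Q140 F2 (next 91.8), and Nkx6-2 at 16.5 CPM in wild type M2 (next 11.6).

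Nkx2-3 stood at 0.225 CPM in Q140 M1 (next 0.0845), at 0.0861 CPM in Q140 Msh3-/- M3 (next 0.0237) and at 0.0446 CPM in Msh3+/- F3 (next 0.0203). In Msh3-/- M4 it was at 0.0234 CPM, with every other library of the group at 0. Tbx5 was found in 1 library of each of 3 groups, at 0.0249 CPM in Msh3+/- F2, 0.0223 CPM in Msh3-/- M2 and 0.023 CPM in Q140 Msh3+/- M1.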

How the results depend on the processing

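The number of members called in Q140 against wild type was 6, and 4 to 7 without 1 library. In Q140 Msh3-/- against Q140 it was 4, and 4 to 5. In Q140 Msh3+/- against Q140 it was 1 and ran from 0 to 2 without 1 library. There it was 0 with log2(FPKM + 0.1), log2(FPKM + 1) or the strict filter, which leave Hoxa7 untested, and with only the groups compared, plate column, or without Q140 Msh3+/- F1 and Msh3+/- F5, and 2 with no sex covariate or no count filter. In Q140 Msh3+/- against Msh3+/- it was 2 (1 to 2 without 1 library), 4 with library totals, 0 with plate row, and 1 with limma-voom blocked on animal code stem, only the groups compared, plate column, the strict filter (which leaves Otx2 untested) or without that pair of libraries. The count of 0 became 1 with plate column in Q140 Msh3-/- against wild type, and with library totals and both FPKM scales in the interaction with Msh3-/-. It stayed at 0 without any 1 library in the comparisons with 0 members called.

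Below the count filter, Q140 against wild type went from 0 to 1 with library totals, plate column or plate row (0 to 1 without 1 library), and Q140 Msh3-/- against Q140 to 1 with plate row (0 without any 1 library). Q140 Msh3+/- against Q140 went from 2 to 0 with only the groups compared, plate column, plate row or without that pair, and ran from 0 to 2 without 1 library. These left out 31 libraries in turn, those of the groups compared. Otx2 in Q140 Msh3+/- against Msh3+/- turned to -0.148 without the pair and to -0.027 without Q140 Msh3+/- F1 (-0.027 to 2.727 without 1 library). The cause of the other changes was not tested. DESeq2 gave no adjusted p to Hoxa7 in either Q140 Msh3 group against Q140 or to any of the 56 members below the filter there, so it gives no count of members called in Q140 Msh3+/- against Q140 and none below the filter in either.

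With near-silent set at 0.5 CPM, the summed difference of Q140 minus wild type was 0.657 in place of 0.283 CPM, and that of Q140 Msh3-/- minus Q140 -0.90 in place of -0.266 CPM. Without 1 library these ran from 0.229 to 0.365 and from -0.338 to -0.214 CPM, and Q140 Msh3+/- minus Q140 (-0.253) from -0.326 to -0.201 CPM (libraries of the groups compared, left out in turn after seeing the data). Over all genes, 1926 rose and 2043 fell in Q140, against 5076 and 1104 with library totals, which moved the median log2 fold change from 0.0145 to 0.0951. In Q140 Msh3-/- against Q140 the split was 1368 and 1006, against 804 and 3463.

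Replicate numbers did not pair the samples: same-numbered deviations correlated at -0.171 to 0.135 in Q140 and wild type, at -0.299 to 0.212 in Q140 Msh3-/- and Q140 and at -0.106 to 0.256 in Q140 Msh3+/- and Q140. With a replicate block the called members numbered 5, 4 and 0 in these comparisons, 1 in Q140 Msh3+/- against Msh3+/-, and 0 below the filter in Q140 Msh3+/- against Q140.

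Members under 0.1 CPM rest on a few reads a library, so a difference there was often not detectable at this depth.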
